A study of Mus musculus with 6 samples.

Results

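The keratin genes described here, given with their gene identifiers, were followed through mouse dorsal skin after depilation: Krt7 (ENSMUSG00000023039), Krt8 (ENSMUSG00000049382), Krt18 (ENSMUSG00000023043) and Krt19 (ENSMUSG00000020911), the keratins of simple epithelia, and Krt90 (ENSMUSG00000048699), a type II keratin. They are 5 of the 32285 genes in the deposited feature tables. They were picked by symbol after levels in these libraries had been seen, Krt8 and Krt90 among them for a rise in outer bulge (OB) cells, so all levels and differences below are a description and carry no p-value.

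The libraries came from wildtype FVB male mice aged p55-57, whose back skin was shaved and waxed to start hair regrowth. Skin was taken at 0 h, then after 4 h and 16 h, and after 2, 4 and 6 days (2 d, 4 d, 6 d). For each time the cells of 2 mice, processed apart, were mixed in equal number into 1 library of 3′ single-cell RNA-seq, so cells cannot be assigned to their mouse and no time point has a replicate. The libraries held 7307 to 13878 barcodes and 72634390 to 112370376 UMIs (unique molecular identifiers, 1 per captured transcript), and 50502 cells of 61031 barcodes were analysed after filtering and removal of 4675 likely doublets. Levels are given in CPM, the usual scale for the UMIs of a gene divided by all UMIs summed over the cells of a type in a library, with exact Poisson 95% intervals that cover counting error only. Since each library is 1 sample, neither mouse-to-mouse nor handling differences are in these intervals.

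Keratins are filament proteins that form obligate pairs of a type I and a type II chain. Krt8 (type II) and Krt18 (type I) are partners in liver, gut and other single-layered epithelia, where the unpaired chain is degraded, and Krt7 (type II) and Krt19 (type I) join them in ducts. Basal epidermal cells instead use Krt5 with Krt14. In skin, Krt8, Krt18 and Krt20 are classical proteins of Merkel cells, the touch receptor cells of the epidermis, and Krt7 and Krt19 are known from glands and hair follicles (HFs).

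Apart from Krt19, the genes lie in the keratin cluster of chromosome 15 (GRCm38.p6): Krt7 at chr15:101412403-101427806 on the + strand, Krt90 at chr15:101552356-101562950 on the − strand, Krt8 at chr15:101996711-102004342 on the − strand and Krt18 at chr15:102028216-102032026 on the + strand. Krt19 lies at chr11:100140810-100145926 on the − strand. Krt8 and Krt18 point away from each other, with 23874 bases between their start sites and 2 predicted gene models (Gm36026 and Gm41404) in between, and Krt18 is the only type I gene among them. Krt90 starts 441392 bases from Krt8 and 150547 from Krt7. The 250 bases before each start site are given here 5′ to 3′ on the gene's strand (RefSeq, GRCm38.p6). Krt8, Krt18 and Krt90 were chosen because they lie in the same keratin cluster and, within OB1 cells, had their highest level at 16 h. Krt7 is given for comparison. Capitals mark the letters searched: TATAA on the gene's strand (the TATA box), GGGCGG on either strand (the GC box of Sp1-type factors), TGANTCA on either strand (AP-1) and GGAAG on either strand (the core of Ets sites); no matches overlapped.
Krt8, chr15:102004343-102004592: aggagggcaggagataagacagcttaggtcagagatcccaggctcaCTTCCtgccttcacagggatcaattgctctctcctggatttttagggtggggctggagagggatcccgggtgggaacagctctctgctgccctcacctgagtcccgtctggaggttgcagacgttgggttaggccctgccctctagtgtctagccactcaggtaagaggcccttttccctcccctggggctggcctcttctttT
Krt18, chr15:102027966-102028215: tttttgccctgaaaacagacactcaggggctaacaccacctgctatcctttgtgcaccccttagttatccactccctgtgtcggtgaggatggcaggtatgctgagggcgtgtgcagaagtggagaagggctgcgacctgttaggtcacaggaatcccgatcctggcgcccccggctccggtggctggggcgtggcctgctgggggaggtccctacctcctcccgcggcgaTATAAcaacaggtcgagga
Krt90, chr15:101562951-101563200: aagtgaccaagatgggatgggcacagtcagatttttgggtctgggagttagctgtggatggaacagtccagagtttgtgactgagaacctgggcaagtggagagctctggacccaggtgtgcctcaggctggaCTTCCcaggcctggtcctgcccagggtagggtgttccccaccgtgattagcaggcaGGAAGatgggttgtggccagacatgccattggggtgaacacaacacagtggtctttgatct
Krt7, chr15:101412153-101412402: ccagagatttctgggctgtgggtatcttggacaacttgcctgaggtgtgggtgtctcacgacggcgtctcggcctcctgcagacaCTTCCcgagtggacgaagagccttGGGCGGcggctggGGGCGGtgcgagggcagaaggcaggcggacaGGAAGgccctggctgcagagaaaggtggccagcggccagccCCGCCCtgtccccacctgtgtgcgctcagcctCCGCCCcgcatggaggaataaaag
The search window ran on to 50 bases after the start, 300 bases in all. TATAA stood 19 to 15 bases before the Krt18 start and was in 17.5% of the 32544 mouse promoters of that length; in Krt8 the letters span the start site itself, so only their first T is in the window shown. GGGCGG occurred 4 times before Krt7, was absent from the other windows and was in 35.9% of all promoters. GGAAG occurred 2 times before Krt7, 2 times before Krt90 and 1 time before Krt8, and was in 71.3% of promoters, and TGANTCA was in none of the 4 and in 7.79% of promoters. GC made up 66% of the Krt7 bases shown, 60.4% of those of Krt18, 58% of those of Krt8 and 55.6% of those of Krt90, where the median of all promoters is 52.4%.

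Cells were clustered without the 5 genes and clusters were named from marker genes. The classes are sebaceous gland cells (SG), outer bulge cells (OB1, OB2, OB3), inner bulge cells (IB), basal and suprabasal cells of the upper HF (uHF.B, uHF.SB), basal and suprabasal cells of the interfollicular epidermis (IFE.B, IFE.SB), granular cells, inner root sheath cells (IRS1, IRS3), T cells, Langerhans cells, melanocytes and fibroblasts. A pair of HF clusters are called by their leading genes. The Flg/Sprr1b cluster best matched the uHF.SB list and the Tagln/Hsd11b2 cluster the OB1 list. Both were left unnamed because their leading genes held more markers of another type (2 and 1) than of that list. IRS1 scored almost as high for the IRS2 markers (5.61 against 5.88). SG cells showed 8 of 9 sebaceous markers at 0 h and 9 of 9 in each later library, with a summed level of 8324 to 12440 CPM, against 71.0 to 816 CPM in the other types at 4 h. Only 13 SG cells were found at 0 h, so no SG level is given for that library.

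The analysed cells held 2959 UMIs of Krt8 in 720 cells, 2049 of Krt18 in 637 cells, 1909 of Krt7 in 1269 cells, 213 of Krt19 in 180 cells and 152 of Krt90 in 68 cells. Over whole libraries Krt8 and Krt18 were a brief early signal. Krt8 measured 1.10, 24.6, 9.72, 0.790, 2.19 and 1.42 CPM in the 6 libraries in order of time, and Krt18 measured 0.811, 22.5, 3.33, 0.535, 0.524 and 1.5 CPM. Krt90 stood at 0.0300, 0.380, 1.12, 0, 0.0393 and 0.199 CPM, with its highest value at 16 h. Krt7 took the other course, 4.79, 1.46, 3.01, 4.02, 4.72 and 7.05 CPM, lowest at 4 h and highest at 6 d, and Krt19 rose late, with 0.180, 0.0455, 0.0209, 0.153, 1.74 and 0.677 CPM. T cells, in which keratins are not made, held 0 UMIs of Krt8 in every library, which allows a level of at most 3.40 CPM at 4 h and 5.23 CPM at 16 h.

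**Figure D1:**
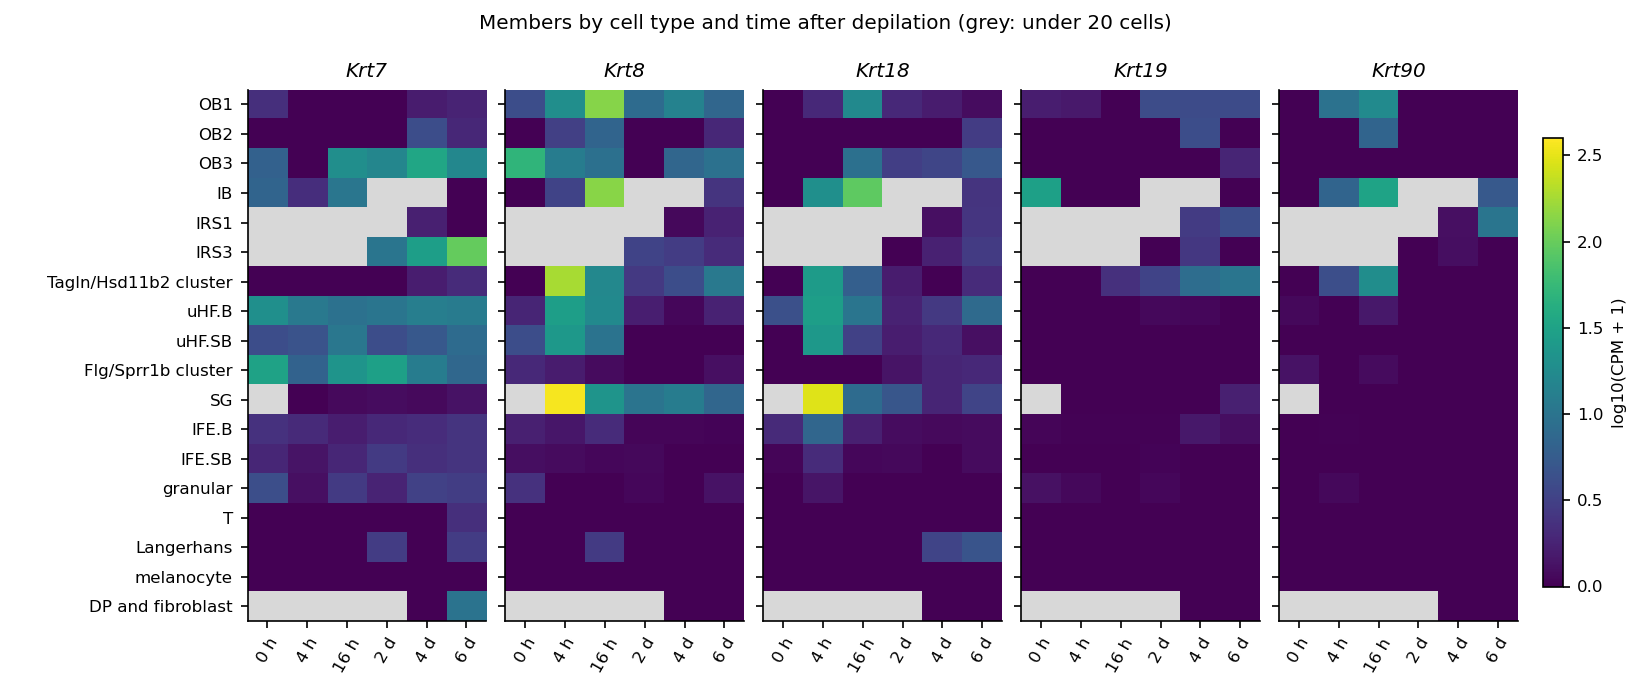
Level of each gene (colour, log10 of CPM + 1) in every cell type (rows of squares) and library (columns); grey squares are sums of fewer than 20 cells. Krt8 and Krt18 are highest in SG at 4 h (364 and 295 CPM), Krt90 in IB at 16 h (31.3 CPM, but 8.41 CPM and below OB1 without 1 cell), Krt7 in IRS3 at 6 d (96.0 CPM) and Krt19 in IB at 0 h, where it rests on 5 UMIs.

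Cells of the sebaceous class carried most of the 4 h signal. Of the Krt8 UMIs of that library, 1367 of 1620 (84.4%) were in the 230 SG cells, and of the Krt18 UMIs 1109 of 1481 (74.9%). Krt8 in SG measured 364 CPM (345 to 384) at 4 h, 21.3 CPM (17.9 to 25.2) at 16 h, 8.93 CPM at 2 d, 11.3 CPM at 4 d and 6.18 CPM at 6 d. Krt18, its partner chain, measured 295 CPM (278 to 313), 7.10 CPM (5.18 to 9.50), 3.92, 0.844 and 2.40 CPM. The 4 h library stood alone in both genes, and no interval of a later library overlapped its own. From 4 h to 16 h Krt8 fell by 4.09 on the log2 scale (3.84 to 4.36), a level 17.1-fold higher at 4 h, and Krt18 fell by 5.36 (4.95 to 5.84), 41.6-fold. Both were called lower by at least 2-fold, 2 of 2 members tested, where 7.32% of the 11368 genes tested in SG were called lower. The 13 SG cells of 0 h held 0 UMIs of either gene, which allows up to 15.6 CPM.

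The SG signal was spread over many cells. At 4 h, 131 of 230 cells held a Krt8 UMI and 126 a Krt18 UMI; the richest cells held 66 and 73, and 44 cells held at least 10 of Krt8. Each cell was thinned to 2000 UMIs so that shares do not follow depth. Krt8 was then seen in 33.2% of SG cells at 4 h (27.1 to 39.7, 76 of 229 cells; 57.0% without thinning) and Krt18 in 29.3% (23.5 to 35.6; 54.8% without thinning). At 16 h the Krt8 share was 4.95% (2.73 to 8.16; 17.1% without thinning), although the median SG cell was deeper there, with 21676 against 14803 UMIs. T cells gave 0 of 245 thinned cells for Krt8 and Krt18 at 4 h, which allows a share of up to 1.22%, at a median depth of 2214.5 UMIs.

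A finer clustering of all cells, looked at after the data had been seen, divided SG into a cluster led by Akr1c18 and Lcn2 and a cluster led by Fa2h and Elovl3. The Fa2h/Elovl3 cells had more of the sebocyte markers, with Scd1 (a fatty acid desaturase) at 7610 CPM and a marker sum of 19720 CPM at 4 h, while the Akr1c18/Lcn2 cells had Scd1 at 359 CPM and a marker sum of 3061 CPM, above the 816 CPM of the next type. Of the SG UMIs at 4 h, 1038 of 1367 for Krt8 and 1051 of 1109 for Krt18 were in the Akr1c18/Lcn2 cells, and with so low a marker level it is unsure that these are sebocytes. Both had Krt8 at 4 h, 466 CPM (438 to 495) in the 168 Akr1c18/Lcn2 cells and 216 CPM (193 to 240) in the 62 Fa2h/Elovl3 cells. Krt18 was less even, 472 CPM (443 to 501) against 38.0 CPM (28.8 to 49.1). At 16 h the order of Krt8 was the other way round, 15.4 CPM in the former and 32.1 CPM in the latter, and Krt18 stood at 10.3 and 1.34 CPM. The Fa2h/Elovl3 cells thus held mostly Krt8 UMIs in both libraries, 329 against 58 UMIs at 4 h and 72 against 3 at 16 h.

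**Figure D2:**
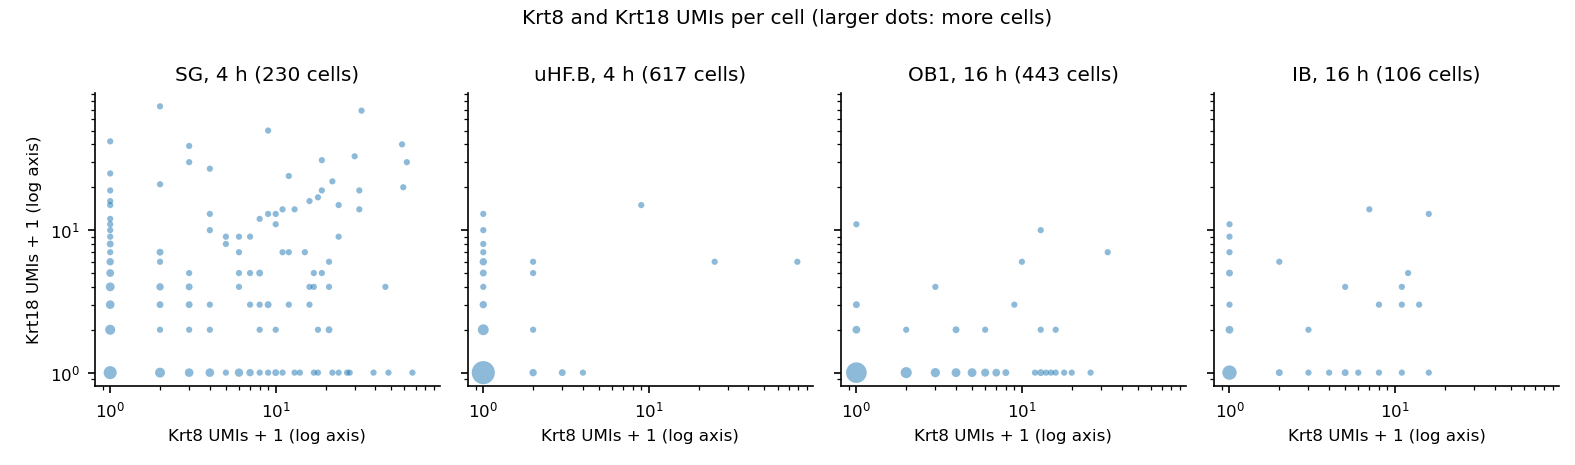
Krt18 UMIs + 1 against Krt8 UMIs + 1 in the cells of 4 cell types and libraries (both log axes; larger dots stand for more cells). SG cells at 4 h reach 66 UMIs of Krt8 and 73 of Krt18 and many hold both, while in uHF.B at 4 h 1 cell with 78 UMIs of Krt8 lies far from the rest.

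In OB1, the bulge layer that holds the Cd34+ HF stem cells, the peak came later. Krt8 measured 3.14 CPM (5 UMIs) at 0 h, 18.5 CPM (13 to 25.5) at 4 h, 132 CPM (119 to 145) at 16 h, 7.11 CPM at 2 d, 13.1 CPM at 4 d and 6.24 CPM at 6 d. The 16 h library was the highest and 0 h the lowest. Krt18 had 0 UMIs at 0 h, 2 at 4 h, 49 at 16 h (16.0 CPM, 11.9 to 21.2) and 1, 2 and 1 in the later libraries. Krt90 had 0 UMIs at 0 h, 17 at 4 h (8.49 CPM, 4.95 to 13.6), 51 at 16 h (16.7 CPM, 12.4 to 21.9) and 0 in each of the later libraries. Krt90 and Krt8 were thus already present at 4 h, while Krt18 was seen almost only at 16 h. Krt7 stayed at or below 1.25 CPM and Krt19 at or below 2.91 CPM except in the 2 d library, where Krt19 rested on 3 UMIs.

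Against 0 h, OB1 at 16 h had Krt8 higher by 5.26 on the log2 scale (4.16 to 7.02), a 42-fold level. With 0 UMIs at 0 h taken as 3 UMIs, the level of Krt90 was at least 8.86-fold higher and that of Krt18 at least 8.51-fold higher. The 3 members tested were all called higher by at least 2-fold, where 15.4% of 10852 genes were called higher and 9.92% lower. At 4 h both members tested were called, Krt8 5.89-fold higher and Krt90 at least 4.51-fold, where 17.2% of 10222 genes were called higher. From 16 h to 2 d Krt8 fell by 4.11 (3.16 to 5.54), Krt18 fell by 3.41 and Krt90 was at least 5.47-fold lower, 3 of 3 tested, where 11.4% of 10619 genes were called lower. These contrasts were used to choose the genes, so nothing is read from the counts.

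**Figure D3:**
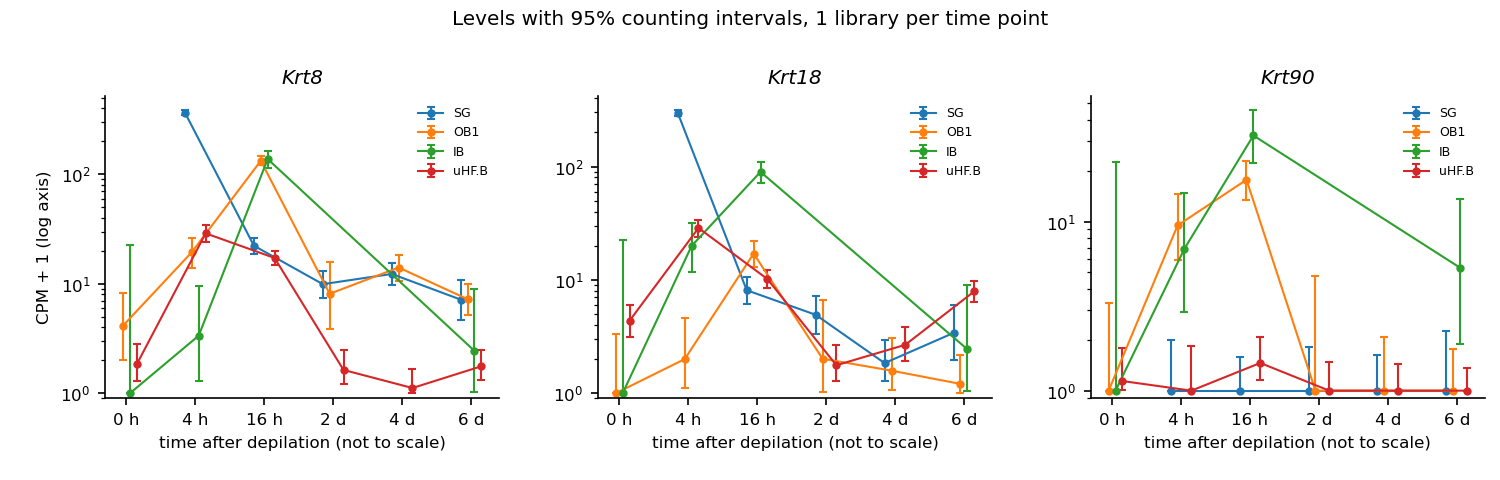
Level (CPM + 1, log axis) of Krt8, Krt18 and Krt90 in SG, OB1, IB and uHF.B against time after depilation (time points evenly spaced), with exact Poisson 95% intervals; sums of fewer than 20 cells have no point and lines join across them. SG peaks at 4 h and lies at 21.3 CPM of Krt8 or less from 16 h on, whereas OB1 peaks at 16 h with 132 CPM.

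OB1 was made of 2 clusters in different proportion in each library, and at 16 h nearly all UMIs of the 3 keratins sat in 1 of them. The cluster led by Scrg1 and Cpa4 had 14, 295, 250, 96, 548 and 630 cells over the 6 libraries, and the cluster led by Krt24 and Cck had 269, 166, 193, 73, 163 and 331. At 16 h the Scrg1/Cpa4 cluster held 401 of the 403 Krt8 UMIs (227 CPM, 205 to 250), all 49 Krt18 UMIs (27.7 CPM) and 46 of the 51 Krt90 UMIs (26.0 CPM). At 4 h the 295 Scrg1/Cpa4 cells had Krt8 at 17.6 CPM (10.8 to 27.2), so Krt8 was higher at 16 h within this cluster too. In the Krt24/Cck cluster Krt8 was 3.30, 19.6 (11.4 to 31.3), 1.55 (0.188 to 5.61), 5.64, 9.90 and 3.23 CPM, with its highest value at 4 h, and Krt18 was at 0 UMIs throughout. Krt90 was at 4 h mostly in the Krt24/Cck cells (16 of 17 UMIs, 18.4 CPM) and at 16 h mostly in the Scrg1/Cpa4 cells. The Scrg1/Cpa4 cluster had 14 cells and 0 UMIs at 0 h, which allows up to 39.3 CPM. Its Krt8 level at 16 h lay above that limit. For Krt8, Krt18 and Krt90 in OB1 a change from 0 h cannot be told apart from a change in which bulge cells were present.

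The Scrg1/Cpa4 cluster differed in marker levels from the Krt24/Cck cluster and from IB. It held 79 of the 81 OB1 cells with Krt8 at 16 h, so those cells are set beside a cluster that contains them. The 81 such cells at 16 h had the bulge marker Cd34 at 212 CPM, against 183 CPM in the whole Scrg1/Cpa4 cluster, 587 CPM in the Krt24/Cck cluster and 13.6 CPM in IB, and Krt24 at 8.23 CPM against 13.6 CPM in the Scrg1/Cpa4 and 809 CPM in the Krt24/Cck cluster. Of the IB markers they had Krt6a at 2124 CPM, against 1758 CPM in the Scrg1/Cpa4 cluster and 3780 CPM in IB, Cryab at 97.2 CPM against 96.7 and 1304 CPM, and Krt75 and Rnase12 at 0 UMIs. With HF cells clustered at resolution 0.8, 141 of the 443 OB1 cells with 352 of the 403 Krt8 UMIs formed a cluster of their own led by Cpa4, Gm50397, Anxa3 and Krt8, which took the IB name with a score of only 0.01, and the Krt8 level of the remaining OB1 cells was 24.5 CPM. With doublets kept, 137 cells with 317 UMIs went the same way (score 0.15) and OB1 was left with 23.7 CPM. At resolution 0.2 and under another seed all 443 cells stayed OB1.

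Krt8 was seen in 12.4% of thinned OB1 cells at 16 h (9.44 to 15.9, 54 of 436; 18.3% without thinning) and in 3.37% at 4 h (14 of 416; 3.25% without thinning). Krt90 was seen in 2.75% at 16 h (1.43 to 4.76, 12 cells; 5.64% without thinning) and in 1.44% at 4 h. The T cells of the 16 h library had 0 of 179 thinned cells with Krt8, Krt18 or Krt90, an upper limit of 1.68%, at a median depth of 2274.5 UMIs against 6612 in OB1. The interval of the Krt90 share reached below that limit, while the share of Krt8 lay above it.

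**Figure D4:**
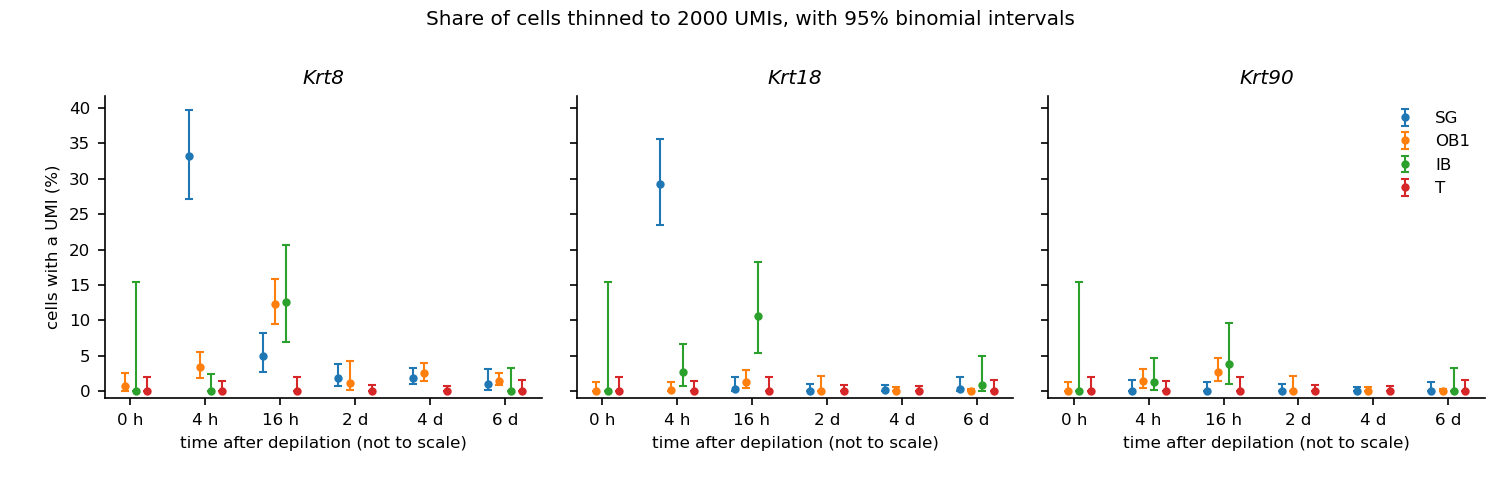
Share of cells with at least 1 UMI of Krt8, Krt18 or Krt90 (percent, cells thinned to 2000 UMIs, exact binomial 95% intervals) in SG, OB1, IB and T cells against time after depilation. Krt8 reaches 33.2% in SG at 4 h and 12.4% in OB1 at 16 h, and the T cells are at 0% in every panel.

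Inner bulge cells, the keratinized layer next to the resting hair, showed a similar 16 h level from fewer cells. Krt8 in IB measured 0, 2.37 and 137 CPM (114 to 162) at 0 h, 4 h and 16 h, from 0, 2 and 131 UMIs, and 1.44 CPM at 6 d; the 2 d and 4 d libraries had 9 and 14 IB cells. The order of types by Krt8 level at 16 h was therefore IB, then OB1 at 132 CPM (119 to 145), which overlap, then SG at 21.3 CPM, uHF.B at 16.2 CPM (13.9 to 18.8) and the Tagln/Hsd11b2 cluster at 15.2 CPM (7.88 to 26.6), which overlap among themselves. Krt18 in IB was 18.9 CPM (10.8 to 30.8) at 4 h and 88.7 CPM (70.9 to 110) at 16 h, the highest of any type in that library, followed by OB1 at 16.0 CPM and uHF.B at 9.17 CPM. Krt90 in IB was 5.92 CPM at 4 h and 31.3 CPM (21.1 to 44.7) at 16 h, but 22 of its 30 UMIs at 16 h were in 1 cell, and without that cell the level was 8.41 CPM, below that of OB1 (16.7 CPM). From 4 h to 16 h all 4 members tested in IB were called higher (Krt8, Krt90, Krt18 and Krt7), where 19.3% of 8497 genes were. Without integration of the libraries, 34 of the 106 IB cells of 16 h, with 108 of the 131 Krt8 UMIs, were placed in OB1 and 52 in uHF.SB.

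Upper follicle and epidermal basal cells had Krt18 at 4 h, when OB1 had 2 UMIs of it. IB also had it then, at 18.9 CPM (10.8 to 30.8), which overlaps the uHF.B interval. In uHF.B Krt18 measured 3.36 (2.15 to 5.0), 27.7 (23.0 to 33.0), 9.17 (7.46 to 11.2), 0.765, 1.67 and 6.91 CPM (5.41 to 8.70), with a peak at 4 h and a second, lower level at 6 d that was 4.13-fold the 4 d level. Krt8 measured 0.840, 27.9 (23.2 to 33.3), 16.2 (13.9 to 18.8), 0.638, 0.119 and 0.768 CPM, without the 6 d level. At 4 h, 2 of 3 members tested were called higher than at 0 h (Krt8 33.2-fold, Krt18 8.23-fold), where 17.7% of 11840 genes were. The Krt8 value of 4 h rested on few cells: 12 of 617 cells held it, 78 of its 123 UMIs were in 1 cell, and without the richest 2 cells it was 4.79 CPM. Krt18 was in 41 cells, at most 14 UMIs in a cell. Most of these UMIs were in the uHF.B cluster led by Avpr1a and Lpl (Krt8 137 CPM, Krt18 101 CPM). Without integration 10 cells with 113 of the 123 Krt8 UMIs and 47 of the 122 Krt18 UMIs went to SG. A cluster that took the IB name with a score of -0.1 received 524 of the 617 cells with 73 of the Krt18 UMIs. Only 23, 2 and 7 cells were left in uHF.B clusters. They held 0 UMIs of either gene, which ends both calls, but so few cells cannot show absence. At 16 h it was the cycling uHF.B cluster, led by Anln, that held 152 of 177 Krt8 UMIs (23.4 CPM). Its richest 2 cells held 43 and 27 of these, and without them the level was 12.7 CPM. For all uHF.B at 16 h it was 9.84 CPM without the richest 2 cells.

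In IFE.B, the largest class, Krt18 rose without Krt8. Krt18 measured 1.06 (0.711 to 1.52), 6.29 (5.44 to 7.24), 0.687, 0.225, 0.154 and 0.197 CPM, 5.93-fold higher at 4 h than at 0 h, with 196 UMIs in 116 of 3339 cells. Krt8 measured 0.696, 0.450, 1.08, 0.0751, 0.0768 and 0.0657 CPM and was not higher at 4 h. In the thinned cells of 4 h Krt18 was in 1.20% (0.861 to 1.64) and Krt8 in 0.120% (0.0328 to 0.308) of IFE.B. The upper limit of 1.22% from 0 of 245 T cells is as high as this Krt18 share, so the share does not stand apart from it, while the level of 6.29 CPM lies above the 3.40 CPM that the T cells allow. IFE.SB followed at a low level, 0.0827 CPM at 0 h, 1.08 CPM (12 UMIs) at 4 h and 0.118 CPM at 16 h. Granular cells had Krt8 at 1.35 CPM (17 UMIs) at 0 h, and 0, 0 and 1 UMIs in the next 3 libraries.

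The Tagln/Hsd11b2 cluster, with 35 cells at 0 h and 1499 at 4 d, had Krt8 at 0, 183 (139 to 237), 15.2, 1.72, 3.07 and 10.3 CPM. The 4 h value came from 57 UMIs in 15 of 42 cells, 19% of cells after thinning, and these 42 cells were named OB1 without integration and IRS2 at HF resolution 0.2. At HF resolution 0.8, 41 of them, with all 57 UMIs, were in a separate cluster led by Gpha2 and Slc7a2, and 1 cell with 0 UMIs stayed. With doublets kept and under another seed all 42 stayed. Whether the 4 h cells are of the same type as those of 4 d was not tested. In order of Krt8 level at 4 h, SG was first, this cluster next, and uHF.B, uHF.SB at 23.3 CPM (12.4 to 39.8) and OB1 followed with overlapping intervals. OB3 at 0 h had 48.8 CPM of Krt8 from 18 UMIs, of which 15 were in 1 cell.

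Outside OB1 and IB Krt90 was rare. It was at 0 UMIs in SG in all libraries, an upper level of 0.799 CPM at 4 h, so the SG peak of Krt8 had no Krt90. The Tagln/Hsd11b2 cluster had 14 UMIs at 16 h (17.8 CPM), 11 of them in 1 cell, OB2 had 6 UMIs (5.84 CPM) at 16 h, and uHF.B had 5. A late trace appeared in IRS1, with 2 UMIs at 4 d (0.280 CPM) and 12 at 6 d (9.24 CPM, 4.77 to 16.1), 80.0% of the Krt90 UMIs of the 6 d library.

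Krt7 had other holders. Its UMIs were in uHF.B (29.1%), the Flg/Sprr1b cluster (24.4%) and IRS3 (19.9%), and SG and OB1 had almost none. In uHF.B it was 18.6 (15.6 to 22.1), 10.2 (7.45 to 13.7), 8.25 (6.63 to 10.1), 9.18, 12.1 and 11 CPM (9.11 to 13.2), highest at 0 h, with later libraries whose intervals overlap one another. In the Flg/Sprr1b cluster it was 30.3 (24.4 to 37.2), 5.64 (2.71 to 10.4), 21.0 (17.2 to 25.3), 28.8 (24.5 to 33.5), 11.3 and 6.30 CPM. The 4 h level was 5.37-fold under 0 h, and the 6 d level lay inside the 4 h interval. Whole libraries were also low at 4 h, but highest at 6 d. Among types with at least 10 UMIs at 0 h the order was Flg/Sprr1b, uHF.B, granular cells at 3.19 CPM (2.28 to 4.34) and then IFE.B at 1.35 CPM (0.954 to 1.87) and IFE.SB at 0.910 CPM (0.454 to 1.63), of which only the last neighbours overlap.

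The highest Krt7 level was late, in IRS3, an inner root sheath class with at least 20 cells only from 2 d on. IRS3 had 4 UMIs at 2 d (9.32 CPM), 116 at 4 d (27.6 CPM, 22.8 to 33.1) and 260 at 6 d (96.0 CPM, 84.7 to 108), and too few cells before. The 6 d level was higher than that of 4 d by 1.79 on the log2 scale (1.48 to 2.13); 1 of 2 members tested was called, where 5.89% of 11568 genes were. Krt7 was in 91 of 381 IRS3 cells at 6 d, and after thinning in 9.63% (6.83 to 13.1) against 3.73% (2.41 to 5.50) at 4 d. T cells at 6 d had it in 0.442% of thinned cells (1 of 226), at a median depth of 2522 UMIs against 5897 in IRS3. OB3 also had Krt7, 33.9 CPM (22.4 to 49.4) at 4 d and 15.1 CPM at 6 d.

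**Figure D5:**
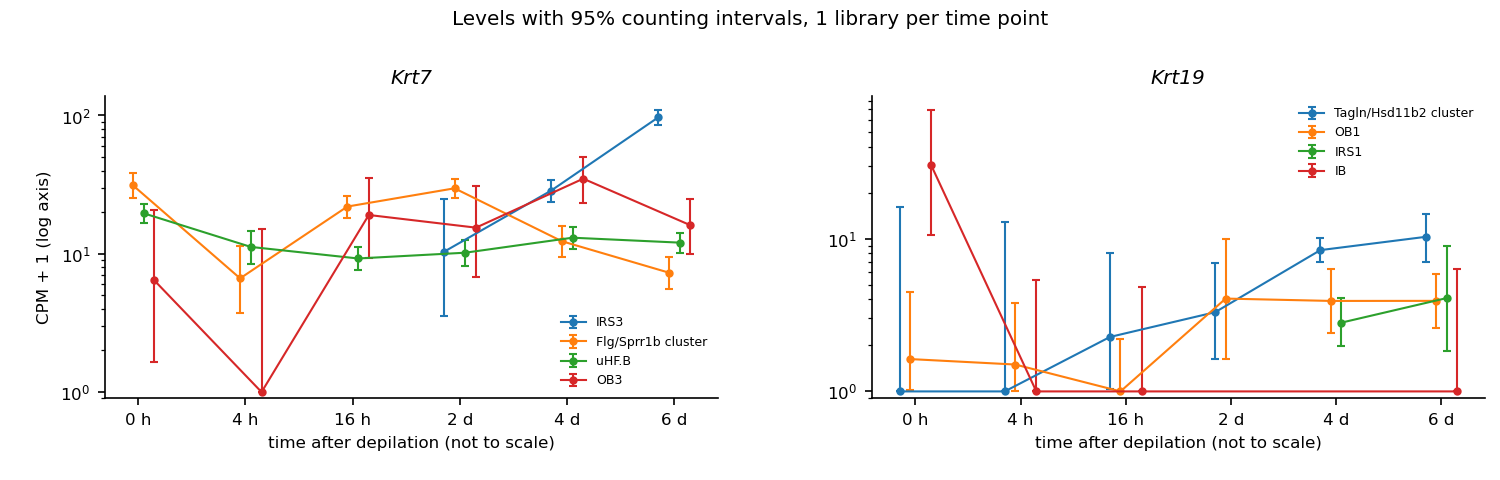
Level (CPM + 1, log axis) of Krt7 and Krt19 against time after depilation (time points evenly spaced) in the 4 cell types shown for each, with exact Poisson 95% intervals. Krt7 in IRS3 climbs to 96.0 CPM at 6 d, and Krt19 in the Tagln/Hsd11b2 cluster reaches 9.26 CPM.

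Krt19 was scarce until 2 d and higher at 4 d and 6 d. Of its 213 UMIs, 125 (58.7%) were in the Tagln/Hsd11b2 cluster, where it measured 0, 0, 1.27, 2.30, 7.40 (5.98 to 9.06) and 9.26 CPM (6.05 to 13.6), highest at 4 d and 6 d with overlapping intervals. OB1 had 10 UMIs at 4 d (2.91 CPM) and 14 at 6 d (2.91 CPM), and IRS1 had 13 at 4 d (1.82 CPM). The 22 IB cells of 0 h held 5 UMIs, 29.3 CPM with a wide interval of 9.50 to 68.3. IFE.B reached 0.461 CPM at most (6 UMIs at 4 d), and IFE.SB held 1 UMI in all.

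Krt18 had a higher share among cells with Krt8 than among cells without it. Among thinned SG cells of 4 h, Krt18 was in 42.1% (30.9 to 54.0) of the 76 cells with Krt8 and in 22.9% (16.5 to 30.4) of the other 153. In uHF.B at 16 h it was in 54.5% of 11 cells with Krt8 (6 cells) and in 0.323% of the rest, and in IB at 16 h in 38.5% of 13 cells and 6.67% of the rest. In OB1 at 16 h Krt18 was in 9.26% of the 54 cells with Krt8 (3.08 to 20.3) and 0.262% of the others, and Krt90 in 14.8% (6.62 to 27.1) against 1.05%; with cells thinned to 1000 UMIs the Krt90 shares were 2.63% and 1.73%. Cells of a library share their source, so these shares are given without a test. Across 94 sums of a cell type in a library, Krt18 was the gene whose level was most like that of Krt8 among 13629 genes by Pearson's r (0.728 on log2(CPM + 1)), followed by Arhgdig, Steap4, Tpm2 and Diras2. By Spearman's rho (0.552) Krt18 was only in place 61 for Krt8, and Krt8 in place 17 for Krt18.

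The other genes had other companions by the same measure. Krt18 was followed after Krt8 by Gm16685, Mirt1, Wincr1 and Arhgap8 (r of 0.658 to 0.604). Krt90 was most like Gm50397 (0.547), Anxa3, an annexin (0.531), Pglyrp2 and Krt8 (0.464). Krt7 was most like Zbtb7c (0.748), with Gata6, Sox7, Skint1 and Nqo1 next, and Krt19 was most like Foxe1 (0.682), with Gm28154, Mapk15, Cyp27b1 and Hoxc13 next. Krt7 had almost no likeness to Krt8 (r of 0.004). The sums share libraries and differ in depth, and no p-value is given.

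Other keratins in OB1 moved in both directions. These sums mix the Scrg1/Cpa4 and Krt24/Cck clusters, whose proportion differed between libraries. How far the OB1 changes of this and the following lists come from that mix was not tested. At 4 h against 0 h, of 14 of the 44 other keratins tested, 4 were at least 2-fold higher and 5 lower, where 17.2% of all genes tested were higher and 21.9% lower, and at 16 h 4 and 4 of 15, where 15.4% were higher and 9.92% lower (median change 0.34 on the log2 scale, against 0.12 over all genes). Krt16, a wound keratin, went from 46.5 CPM to 868 CPM at 4 h and 485 CPM at 16 h, Krt17 from 578 to 3297 and 1845 CPM, and basal Krt14 from 3761 to 17440 and 12170 CPM. Krt24, a keratin of the resting bulge, was lower, from 1022 to 203 and 349 CPM. At 16 h it stood at 809 CPM in the Krt24/Cck cluster and 13.6 CPM in the Scrg1/Cpa4 cluster. Krt42 was higher but low (0.628, 9.49 and 5.23 CPM), and Krt75, an inner bulge keratin, was lower at 16 h (8.16 to 1.64 CPM).

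The filament partner list holds mostly linker and desmosome proteins that keratins attach to, but also Vim, Sfn and Hspb1, which are neither. At 4 h, 8 of 15 were higher and 2 lower (median 1.08 against -0.04), among them Vim (3.14 to 14.0 CPM), Evpl (33.9 to 94.4), Pkp1 (59.6 to 141) and Pkp3 (215 to 489) higher and Fbf1 and Dst lower. At 16 h, 1 of 15 was higher, Vim at 19.6 CPM, and 0 were lower. In the list of simple epithelium genes 7 of 12 were higher and 3 lower at 4 h (17.2% and 21.9% of all genes), and 5 and 2 at 16 h (15.4% and 9.92%). Anxa3 had 0 UMIs at 0 h, 120 at 4 h (59.9 CPM) and 473 at 16 h (155 CPM), the junction protein Cldn4 went from 1.88 to 31.0 and 23.2 CPM and the adhesion molecule Epcam from 518 to 3136 and 1110 CPM. The transcription factors of simple epithelia Elf3 and Ehf were lower, Elf3 from 10 UMIs to 1 and 0, and Ehf from 13 to 3 and 2. At 2 d, 5 of 10 were lower than at 16 h and 0 higher, where 11.4% of all genes were lower and 9.51% higher.

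Of the AP-1 and Ets factors, a list that also holds Klf4 and Klf5, 2 of 14 were higher and 6 lower at 4 h (17.2% and 21.9% of all genes), and 3 and 6 of 15 at 16 h (15.4% and 9.92%). Ets1 measured 1.26, 45.9 and 40.9 CPM at 0 h, 4 h and 16 h and 6.1 CPM at 2 d, and Fosl1 went from 106 to 461 CPM at 4 h. Elk3 was higher at 16 h (1.88 to 9.16 CPM). Fos, Fosb and Junb were lower in both later libraries, Fos from 8063 to 3499 and 2595 CPM, and Klf4 was lower at 16 h (2624 to 1054 CPM). In SG, Fosl1 was at 137 CPM and Ets1 at 51.4 CPM at 4 h, and at 11.5 and 9.15 CPM at 16 h, beside the fall of Krt8 and Krt18 there. Of 15 genes of the list tested in SG, 5 were lower at 16 h and 0 higher, where 7.32% of all genes were lower. In IB, Fosl1 (449.7 to 96.0 CPM) and Ets1 (177.5 to 66.8 CPM) were also lower at 16 h. There Krt8 (2.37 to 136.7 CPM) and Krt18 (18.9 to 88.7 CPM) were higher. A link between these factors and the keratins was not tested.

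Cells with several Merkel cell genes were not found. Of 12 Merkel cell genes, which include Atoh1, Isl1 and Piezo2, 0 of 50502 cells had 3 detected and 15 had 2. Among the 720 cells with Krt8, 27 had 1 of these genes and 0 had 2, and Krt20 was at 2 UMIs in all analysed cells. A cell of few UMIs can miss such genes, so this limits their detection and not their presence in the skin.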

How the data were processed

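The authors deposited, for each library, a matrix of raw UMI counts per gene and barcode with its gene and barcode lists; the submitters' processing notes name Cell Ranger 6.1.2 and mm10. No further normalization had been applied. Each library pooled cells of 2 mice, and libraries shared 7 to 47 barcodes per pair, at most 0.465% of the smaller library.

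Barcodes with 500 to 7000 genes and at most 10% mitochondrial UMIs were kept (55177). Scrublet (scanpy 1.11.5) scores were used to remove 0.8% of barcodes per 1000 barcodes of a library, 4675 in all, because its own threshold marked 678 barcodes, of which at most 1 in each of 5 libraries. Libraries were integrated with Seurat 5.3.0 (reciprocal PCA, 2000 variable genes, 30 components) and clustered at resolution 0.2, and HF cells again at 0.4. The 5 genes and other listed genes, 255 in all, took no part in clustering. A cluster was named from the marker list with the highest score where at least 3 markers were detected. It was left unnamed where its leading genes held more markers of another list.

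UMIs were summed per cell type and library, and sums of at least 20 cells were used. Changes are log2((UMIs + 0.5)/(total + 1)), and a gene was called at 2-fold or more with at least 10 UMIs in the 2 libraries together. Where a library held 0 UMIs, 3 UMIs stood in its place and the fold is a bound. With 1 library per time point no test was made and no p-value is given; edgeR 4.0.16 gave only the TMM scaling tried as an alternative. Shares have exact (Clopper-Pearson) 95% intervals. Likeness is Pearson's r of log2(CPM + 1) over 94 sums, among genes with at least 200 UMIs. The genes named from the lists are those called in OB1 at 4 h or 16 h against 0 h, at most the 6 of largest change per list; 1 gene that met this rule is not reported here. The scripts were tested on simulated data. Total UMIs per library ranged from 72634390 to 112370376, and median UMIs per barcode from 5857.5 to 10351. The members and lists were chosen with earlier results of these data known.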

Additional observations from a re-analysis of the deposited data

Results flagged for a closer look

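For these changes the cell types of a contrast moved in opposite directions, each by at least 2-fold with a counting interval that leaves out 0. The difference between cell types was not tested, since each library is 1 sample. Values are on the log2 scale.

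Krt8 from 0 h to 4 h was higher in the Tagln/Hsd11b2 cluster (6.49), uHF.B (4.94), uHF.SB (2.64) and OB1 (2.44) and lower in granular cells (-4.38). The first and the last stand against 0 UMIs, so they depend on the count added; with 3 UMIs in place of 0 the Tagln/Hsd11b2 level was at least 14.9-fold higher and the granular level at least 3.37-fold lower. From 4 h to 16 h Krt8 was higher in IB (5.54), OB1 (2.82) and IFE.B (1.24) and lower in SG (-4.09) and the Tagln/Hsd11b2 cluster (-3.54). From 4 d to 6 d it was higher in the Tagln/Hsd11b2 cluster (1.76) and lower in OB1 (-1.06).

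Krt18 from 4 h to 16 h was higher in OB1 (3.70) and IB (2.19) and lower in SG (-5.36), uHF.SB (-3.31), IFE.B (-3.17), IFE.SB (-2.94) and uHF.B (-1.59). The OB1 and IB values change with how cells at the border of these classes are assigned, and the uHF.B and uHF.SB values of Krt8 at 4 h rest on few cells. For the Tagln/Hsd11b2 cluster the 4 h value of Krt8 rests on 15 cells. These formed part of a separate cluster at HF resolution 0.8. Krt8 in granular cells at 0 h was 17 UMIs in 8 cells, 7 of them in 1 cell (0.8 CPM without it). Krt8 in IFE.B at 16 h was 0.661 CPM without the richest 2 cells, inside the 4 h interval of 0.246 to 0.754 CPM. Both levels lie under what 0 Krt8 UMIs allow for T cells, 5.26 CPM at 0 h and 5.23 CPM at 16 h.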

How the results depend on the processing

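Of 241 values recomputed under alternatives for 37 results, 173 stayed within the limits and 68 did not. The limits were the main 95% interval for levels, changes and shares. For counts of genes they were 1.5-fold, and for places and Merkel cell counts the same value. Direction was scored only for the log2 changes, of which 0 reversed. The uHF.B changes of Krt8 and Krt18 and the IB changes were not among these. TMM scaling, another seed, all-cell resolution 0.4, HF resolution 0.2 and a minimum of 1000 genes gave values within the limits where they gave one. Krt7 in IRS3 could not be recomputed at HF resolution 0.2, nor the IB levels at 16 h without integration, and the place of IRS3 by Krt7 was not recomputed with another seed, the mitochondrial limit or a minimum of 1000 genes. No paired analysis was possible because each time point has 1 library, and for the same reason no replicate could be left out.

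With doublets kept, OB1 at 16 h had Krt8 at 23.7 CPM, Krt18 at 0.895 CPM and Krt90 at 8.95 CPM, with shares of 2.20% for Krt8 and 0.315% for Krt90, and ranked 3 by Krt8. OB1 Krt90 at 4 h was 13.9 CPM, IB at 16 h had Krt8 at 261 CPM and Krt18 at 63.0 CPM, and uHF.B at 4 h had 15.1 and 16.1 CPM. The log2 changes of Krt8 in OB1 were 2.88 from 0 h to 16 h and -2.02 from 16 h to 2 d, and those in SG from 4 h to 16 h were -3.83 for Krt8 and -4.74 for Krt18. With HF resolution 0.8, OB1 at 16 h had 24.5, 0.480 and 4.32 CPM of Krt8, Krt18 and Krt90, OB1 Krt90 at 4 h was 14.6 CPM, IB at 16 h had Krt8 at 247 CPM and Krt18 at 68.0 CPM, uHF.B at 4 h had Krt8 at 10.3 CPM, and the OB1 Krt8 changes were 2.84 and -1.66. Under these settings, 137 and 141 of the 443 OB1 cells of 16 h were placed in a cluster that took the IB name, beside the lower 16 h values of OB1.

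Without integration, OB1 at 16 h had Krt18 at 22.6 CPM and Krt90 at 23.8 CPM and ranked 1 by Krt8. SG Krt8 at 4 h was 386 CPM, and uHF.B at 4 h, where few of the 4 h cells stayed, had 0 UMIs of Krt8 and of Krt18. The OB1 Krt8 change to 2 d was -5.64, and the SG changes were -3.73 and -4.44. With at most 5% mitochondrial UMIs, SG at 4 h had 509 and 443 CPM, uHF.B Krt18 at 4 h was 20.5 CPM and the SG Krt8 change was -4.38. As a mean of per-cell CPM, SG at 4 h had 408 and 332 CPM, IB Krt8 at 16 h was 165 CPM and the uHF.B Krt7 change from 0 h to 16 h was -0.75. Without the richest cell, an alternative chosen after seeing the data, SG Krt18 at 4 h was 277 CPM, IB Krt90 at 16 h was 8.41 CPM and uHF.B Krt8 at 4 h was 10.2 CPM. The causes of the changes in these settings were not tested.

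The number of genes changed in OB1 at 4 h (4002) was 7143 with at least 1 UMI, 2235 with at least 50, 6180 at 1.5-fold and 1282 at 4-fold. At 16 h (2747) it was 4705, 1637, 5263 and 549, and in uHF.B at 4 h (4882) it was 7327 at 1.5-fold and 1604 at 4-fold. Without thinning the shares were 18.3% (Krt8) and 5.64% (Krt90) in OB1 at 16 h, 57.0% (Krt8) and 54.8% (Krt18) in SG at 4 h and 23.9% (Krt7) in IRS3 at 6 d; at 1000 UMIs they were 8.60% for Krt8 in OB1 and 20.9% and 22.6% in SG. By Spearman's rho, 3 of the 5 most like genes were shared for Krt7, 1 for Krt8, 1 for Krt18, 1 for Krt19 and 0 for Krt90. With at least 2 Merkel genes, 15 cells were counted. Depth limits Krt90 and Krt19, which had 152 and 213 UMIs in all.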
